A study of Mus musculus with 30 samples.

Results

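The genes described here are 10 core genes of the Hippo pathway, given as a list of names: *Yap1*, *Wwtr1*, *Tead1*, *Tead2*, *Lats1*, *Lats2*, *Amot*, *Amotl2*, *Nf2* and *Sav1*. All 10 were found among the 55487 genes counted in each of 23 single mouse embryos. Their promoters were also examined in 4 peak lists of the transcription factor POU6F1 in mouse embryonic stem cells (mESCs), where a peak was assigned to a gene when it came within 1 kb of one of the gene's annotated transcription start sites (TSSs).

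The Hippo pathway is a kinase cascade that keeps the transcriptional coactivators YAP1 and TAZ (the product of *Wwtr1*) out of the nucleus. The kinases LATS1 and LATS2, assisted by the scaffold SAV1, phosphorylate both coactivators, and the membrane-associated proteins NF2, AMOT and AMOTL2 act upstream of the kinases or bind YAP1 directly. In the compacting mouse morula the outer, polarized cells silence the cascade, so that YAP1 enters the nucleus, joins a TEAD factor and helps to switch on trophectoderm genes such as *Cdx2*, whereas in the inner cells the cascade stays active.

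The embryos came from matings of *Dis3* heterozygous (het) mice with hormone-stimulated females, and each was genotyped from its own DNA. *Dis3* encodes a ribonuclease of the RNA exosome, and the null allele lacks part of its exons. At embryonic day 2.5 (E2.5) there were 6 wild-type (WT), 2 het (*Dis3* +/-) and 4 null (*Dis3* -/-) embryos. At E2.75 there were 3 WT, 5 het and 3 null embryos, so that 9 WT, 7 het and 7 null embryos stood behind the comparisons with the stages combined. Each embryo is 1 replicate. The embryos' mothers and litters are not given, so siblings may be among them. The mESCs were derived from *Dis3* flox/flox blastocysts and carried a pCAG-driven *Pou6f1-mCherry* plasmid for 48 h, so the peaks describe an overexpressed, tagged protein in stem cells and not POU6F1 of the embryo. By the chromatin labels the anti-mCherry precipitation was done on 2 replicates, though the study's methods state a higher number. Each replicate had a peak list against IgG and another against anti-mCherry precipitates of cells that carried mCherry alone. The labels hold a single IgG sample and a single anti-mCherry sample of the mCherry cells, so the lists of both replicates share these controls and are not independent of each other.

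The counts assigned to genes ranged from 1690192 to 14015980 per embryo, with a median of 8030848. Null libraries were shallower, with a median of 4808323 gene counts against 8769961 in the 16 others. For log10 gene counts the exact permutation test (two-sided) gave p = 0.0367 against WT and p = 0.0822 against het embryos. Null libraries also differed from the others in the reads they held outside exons. Such reads, which include those that run past the edge of an annotated exon, made up 32.3% to 43.9% in the 7 null embryos and 21% to 33.4% in the 16 others. Their share in null embryos differed from that in het (exact permutation test, two-sided, p = 0.000583) and in WT embryos (p = 0.000524). The spike-in share was higher in null than in het embryos (5.51% against 2.79% on average, exact permutation p = 0.00233), but not past the threshold against WT embryos (4.38% on average, p = 0.132), and 2 null libraries of E2.75 held fewer than 2000000 gene counts. *Dis3* itself reached 0 to 21.5 CPM (a gene's counts divided by the effective size of its library and scaled to a common total) in the null embryos and 30.4 to 59.2 CPM in the het embryos. In 8 of the 9 WT embryos it ranged from 40.2 to 147 CPM, but the E2.5 library labelled WT replicate 6 had 18.0 CPM, within the null range. Summed morula markers reached 559 to 2154 CPM with 0 of 8 at 0 in all embryos. Cumulus cell markers summed to 0 to 18.9 CPM with *Ptx3* and *Ptgs2* at 0 throughout, oocyte markers to 3.38 to 83.0 CPM and blood markers to 0 to 5.72 CPM with *Hbb-bs* at 0 throughout.

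The promoters of the 10 genes carried POU6F1 peaks in most lists, as did those of many other genes expressed in the embryos. In replicate 1 all 10 had a peak within 1 kb of a TSS, both against IgG (background 82.9% of 13407 genes tested in the embryos) and against the mCherry control (76.7%). In replicate 2 all but *Tead2* had one against IgG (9 genes, background 66.7%). Only *Amot*, *Wwtr1* and *Yap1* had one against the mCherry control in replicate 2 (3 genes, background 24.0%), and the same 3 genes had a peak in all 4 lists (background 23.9%). *Lats1* was too low in the embryos to be among the 13407 genes. The backgrounds above include noncoding genes. Among 11220 protein-coding genes they were higher, at 92.4% and 86.1% in replicate 1 and 27.2% in replicate 2 against mCherry. In replicate 2 against IgG 8419 of these 11220 genes had a peak. The share of members was close to both backgrounds in the list of replicate 2 against mCherry. Whether the share of members exceeded the background in the other lists was not tested. The lists differ in length, with 82694 and 31348 peaks in replicate 1 and 24524 and 3630 in replicate 2, and no read depth comes with them.

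*Wwtr1* (chr3:57455649-57575910, minus strand of GRCm38, GENCODE vM21) had the highest enrichment of the 3 genes present in all lists. Its strongest peak had a fold enrichment of 24.3 against IgG and 17.8 against mCherry in replicate 1, and of 9.37 and 5.46 in replicate 2. The summits lay 16 and 17 bases before the TSS in replicate 1 and 17 bases after it in replicate 2. The peak over the *Amot* promoter (gene at chrX:145446425-145505181, minus strand) had fold enrichments of 23.1, 13.5, 9.06 and 4.23 in the same order, with its summits 50 to 54 bases before the TSS. The peak of *Yap1* (chr9:7931999-8004596, minus strand) was weaker in replicate 1, at 10.3 and 9.84, and reached 5.70 and 5.35 in replicate 2, with summits 144 to 183 bases before the TSS. Among the genes with a peak, the median of the best fold enrichment was 14.1 and 9.16 in replicate 1 and 6.55 and 4.94 in replicate 2. Measured against these medians, *Wwtr1* was above in all 4 lists, *Amot* in the first 3 and *Yap1* in both lists against mCherry.

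The reference sequence of these 3 shared peaks is shown because they are the promoter regions of the pathway bound in every list. Each is given in the direction of the gene, with capitals for matches to GGAATG, the core of the TEAD binding motif, or to its reverse complement. Of the *Wwtr1* peak the part before the TSS is given (chr3:57575911-57576079, 169 bases, 69.8% G or C), and of the *Yap1* peak the whole of the shared interval (chr9:8004681-8004881, 201 bases, 75.6% G or C), which overlaps an exon of the divergent noncoding gene *Gm45494*. Of the *Amot* peak 30 bases are given (chrX:145505215-145505244), because predicted transcripts start further upstream. They were cut around the first motif match in the 120 bases of the peak before the TSS.
Wwtr1: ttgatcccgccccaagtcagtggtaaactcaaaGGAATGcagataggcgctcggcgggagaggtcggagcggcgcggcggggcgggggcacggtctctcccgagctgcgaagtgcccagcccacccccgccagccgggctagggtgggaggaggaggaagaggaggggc
Yap1: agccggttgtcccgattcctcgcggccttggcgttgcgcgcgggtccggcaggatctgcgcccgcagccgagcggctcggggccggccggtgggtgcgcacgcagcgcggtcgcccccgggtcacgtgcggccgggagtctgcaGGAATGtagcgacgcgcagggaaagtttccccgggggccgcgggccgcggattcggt
Amot: ctcggccctgccCATTCCatcatccacccc

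Each of the 3 stretches held 1 match to GGAATG, but the *Amot* stretch was cut so as to hold it. The match began 136 bases before the TSS in *Wwtr1*, 141 bases before it in *Yap1* and, on the other strand, 51 bases before it in *Amot*. In the 250 bases before the TSS, RefSeq promoters of 9 members (GRCm38) were available, as 12 promoter regions. Of the 12 regions, 5 held the motif (of the genes *Amotl2*, *Sav1*, *Wwtr1* and *Yap1*), where 12.6% of 32851 promoters did. The regions are not independent, since *Wwtr1* entered with overlapping regions that held the same site. By gene, 4 of the 9 members held the motif, and no background by gene was computed. The octamer ATGCAAAT of POU factors was in 0 of these 12 regions (1.6% of all promoters) and the homeodomain core TAATTA in 1, of *Nf2* (4.84%). In the 200 bases around the summits of the 3630 peaks of replicate 2 against mCherry, GGAATG was found in 6.83%, ATGCAAAT in 1.16% and TAATTA in 0.716%. Of the 3 members with a peak there, *Yap1* and *Amot* held GGAATG in this window and *Wwtr1* did not. These matches are letters in a window, and binding by TEAD or POU6F1 to them was not tested.

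**Figure D1:**
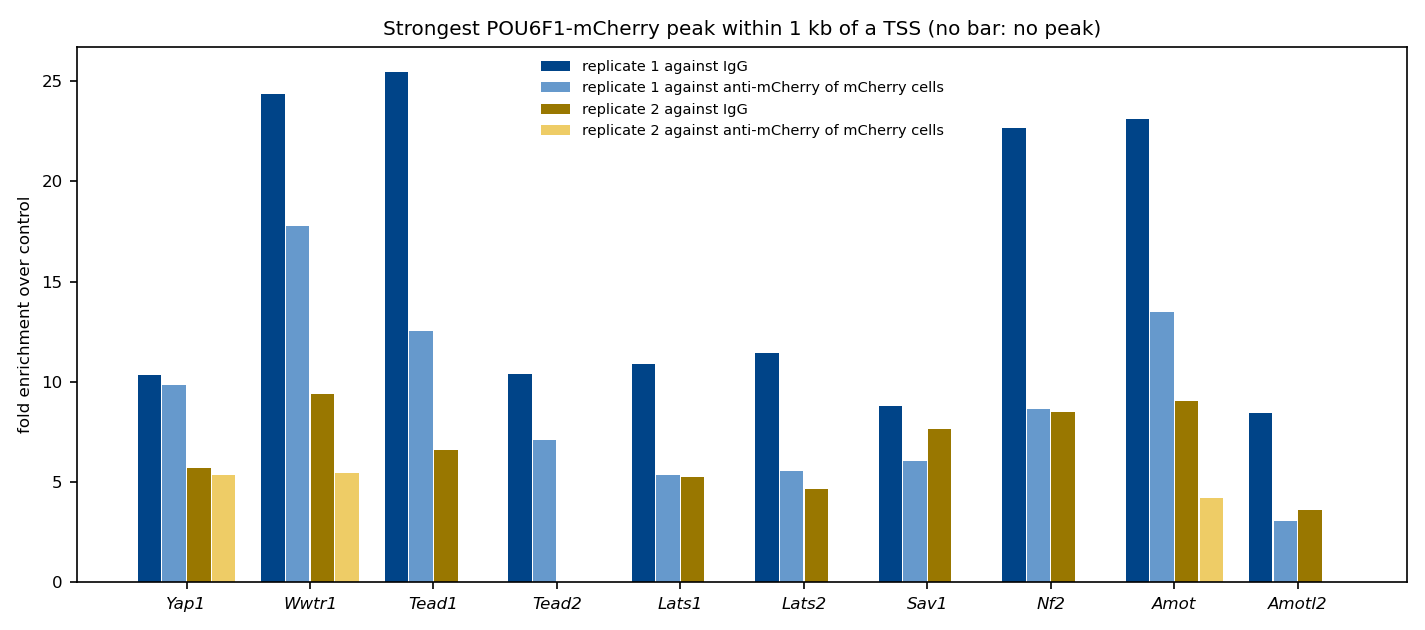
Fold enrichment over the control (vertical axis, linear) of the strongest POU6F1 peak within 1 kb of a TSS of each of the 10 genes, in the 4 peak lists. *Wwtr1*, *Amot* and *Yap1* are the 3 genes with a value in every list, and *Tead2* is the gene with values in replicate 1 only.

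The remaining promoters carried peaks in fewer lists. *Tead1*, a TEAD factor, had the highest enrichment of the 10 genes against IgG in replicate 1 (25.4), with 12.5 against mCherry and 6.59 against IgG in replicate 2. *Nf2*, which encodes the scaffold merlin, had 22.6, 8.67 and 8.49 in the same lists. In the same lists *Lats1* had 10.9, 5.36 and 5.25, *Lats2* had 11.5, 5.53 and 4.68 and *Sav1* had 8.82, 6.04 and 7.66. All 3 were below *Tead1* and *Nf2* in replicate 1, whereas *Sav1* exceeded *Tead1* in replicate 2. *Tead2* had peaks in replicate 1 only, of 10.4 and 7.1. *Amotl2* had the lowest values, 8.47, 3.05 and 3.62. Its peak in replicate 2 had its summit 1064 bases after an internal TSS, so that only the edge of the peak lay within 1 kb. Its 3.05 against mCherry was at the bottom of the genes with a peak in that list, with 0.0681% of 10277 genes below it.

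In the embryos, the steady-state levels of the 10 genes spanned a wide range. Genes were compared on the scale of CPM per kb of exon. The length was that of all annotated exons of a gene merged, not of the transcripts expressed, so the order between genes is approximate. *Wwtr1* was highest with a median of 26.5 over the 23 embryos, and it lay above *Nf2* (9.63) in 21 of 23 embryos. *Nf2*, *Amot* (7.43) and *Yap1* (6.71) came next, followed by *Amotl2* (4.27), *Tead1* (3.63) and *Lats2* (2.54). *Tead2* (1.15), *Sav1* (0.509) and *Lats1* (0.0455) were low. Several neighbours in this order were not clearly separated: *Nf2* was above *Amot* in 13 of 23 embryos, *Amotl2* above *Tead1* in 14, *Tead1* above *Lats2* in 15 and *Tead2* above *Sav1* in 14.

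Within pairs of related genes the order was steadier. *Wwtr1* exceeded *Yap1* in 23 of 23 embryos, with a median ratio of 4.23 and a range from 1.66 to 10.6. *Lats2* exceeded *Lats1* in 23 of 23, and *Tead1* exceeded *Tead2* in 22 of 23. *Amot* exceeded *Amotl2* in 9 of 9 WT and 7 of 7 het embryos but in 5 of 7 null embryos. *Amot* held the third place of the 10 genes in WT embryos with a median of 7.07 CPM per kb, the second in het embryos with 10.9 and the sixth in null embryos with 2.93. *Lats2* shares 42.4% of its exon length with the gene model *Gm49361* on the same strand, and *Sav1* shares 25.4% with *Atl1* on the other strand. Because the counting ignored strand and dropped ambiguous reads, the levels of these genes are uncertain.

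**Figure D2:**
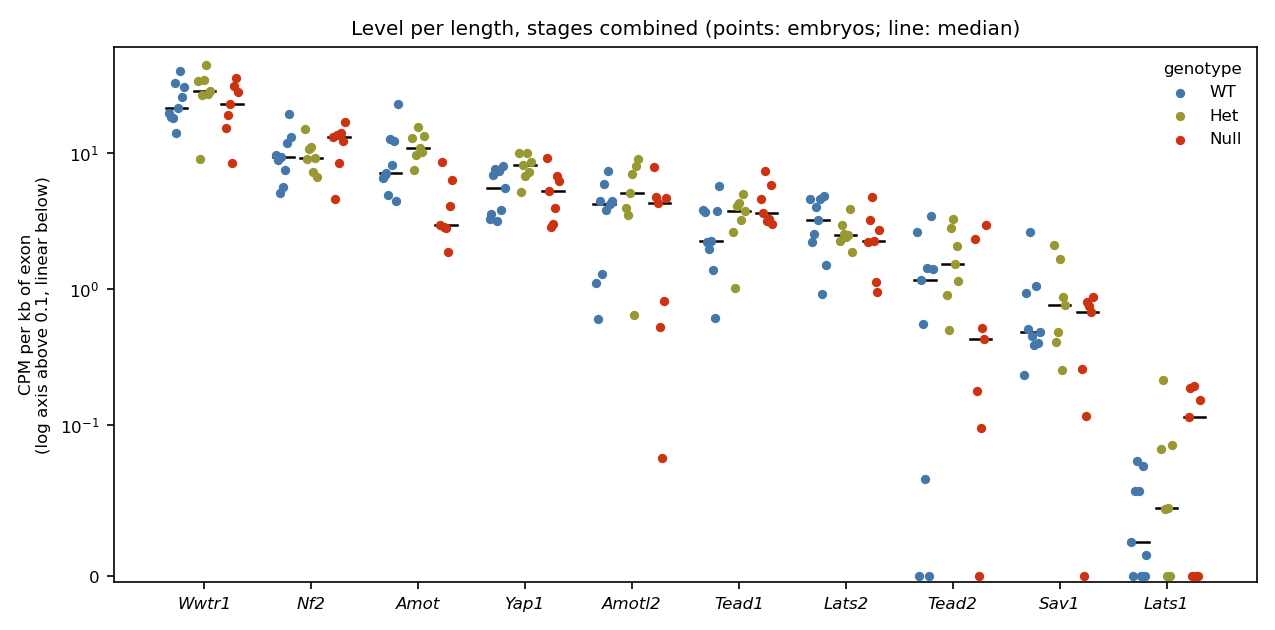
Level of each of the 10 genes in CPM per kb of exon (vertical axis, logarithmic above 0.1 and linear below), with 1 point per embryo in the colour of its genotype, a line at the median of each genotype and the genes in order of their median over 23 embryos. *Wwtr1* stands above the rest, and 6 of the 7 null points of *Amot* lie below its median over all embryos.

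Between the genotypes, *Amot* was the single gene of the 10 that was called in the main fits. With the stages combined, 1 of 9 tested members passed the thresholds in null against het embryos (adjusted p under 0.1 and log2 fold change beyond 1 in size), and it was lower, where 2.06% of 13415 genes were called lower and 5.73% in either direction. The same single member, *Amot*, was called lower in null against WT embryos (background 1.59% lower and 5.25% in either direction). Both comparisons share the null embryos. The others stayed short of the thresholds, which does not show that they were unchanged. In het against WT embryos 0 of 9 members and 0 of 13415 genes (0.0%) were called by edgeR, with 934 genes at an unadjusted p under 0.05 and 27 called by DESeq2. The median log2 fold change of the 9 members was -0.58 in null against het embryos and -0.15 in null against WT embryos, beside 0.02 and -0.02 over all genes tested. *Lats1* was too low to be tested with the stages combined.

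AMOT, or angiomotin, binds actin and YAP1 and, when phosphorylated in the inner cells of the morula, promotes LATS activity. At E2.5 *Amot* had 41.2 CPM in the lowest, 58.4 in the median and 106 in the highest of the 6 WT embryos, and 62.4 and 108 CPM in the het embryos. The 4 null embryos had 23.5, 24.1, 24.6 and 72.6 CPM. Thus 3 of the 4 null embryos lay below every WT and het embryo of E2.5, and the null replicate 2 lay among them. At E2.75 the WT embryos had 37.1, 103 and 191 CPM and the het embryos 81.1, 85.3, 91.5, 111 and 131 CPM. The 3 null embryos had 15.8, 34.4 and 53.0 CPM. All of them lay below every het embryo, and 2 of the 3 lay below every WT embryo. The share of all genes that separate groups of this size in this way was not counted. Averages were 79.8 ± 48.2 CPM in WT (SD, n = 9), 95.8 ± 22.6 in het (n = 7) and 35.4 ± 20.3 in null embryos (n = 7).

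With the stages combined, *Amot* fell in null against het embryos by a log2 fold change of -1.43 (SE 0.36, 95% confidence interval -2.16 to -0.69, edgeR adjusted p = 0.0208). Against WT embryos the log2 fold change was -1.17 (SE 0.34, interval -1.87 to -0.47, edgeR adjusted p = 0.0516). The fall against het embryos remained past the thresholds without each embryo in turn (-1.71 to -1.34). The call against WT embryos was lost without null replicate 4 of E2.5 (-1.09, adjusted p = 0.107), without WT replicate 3 of E2.75, the embryo with 191 CPM (-0.89, adjusted p = 0.128), and without the 2 null libraries of fewer than 2000000 counts (-1.07, adjusted p = 0.156). It held without the E2.5 WT replicate 6, whose *Dis3* level lay in the null range (-1.19, edgeR adjusted p = 0.0630). These libraries differ as bulk samples of whole embryos, and fewer cells of a type in an embryo and less RNA per cell cannot be told apart. The part of the higher share of reads outside exons in null libraries was not tested.

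Each stage on its own had fewer embryos. At E2.75 *Amot* was 1 of 9 tested members called in null against het embryos (log2 fold change -1.56, SE 0.47, edgeR adjusted p = 0.0981), where 2.31% of 14442 genes were called lower and 4.82% in either direction. It was also 1 of 9 in null against WT embryos (-1.73, SE 0.51, adjusted p = 0.0954, background 2.35% lower and 4.54% in either direction). Both calls were close to the threshold and were lost without the 2 null libraries of fewer than 2000000 counts (-0.97, adjusted p = 0.634, and -1.13, adjusted p = 0.540), and the first was also lost in each of the 8 fits that left out 1 embryo. The second was lost in 5 of 6 such fits and held without WT replicate 2, and without WT replicate 3 it was -1.06 (adjusted p = 0.334). At E2.5 0 of 10 members were called in null against het embryos, where 2 of 15904 genes (0.0126%) were called by edgeR, 1473 had an unadjusted p under 0.05 and DESeq2 called 447. *Amot* had a log2 fold change of -1.30 there (SE 0.52, edgeR adjusted p = 0.515). At E2.5 0 of 10 members were called in null against WT embryos (background 1.82%), with *Amot* at -0.85 (SE 0.41, adjusted p = 0.346). The effect of the null genotype on *Amot* differed between the stages by -0.84 (SE 0.67, 95% interval -2.22 to 0.53, adjusted p = 0.701), which was not past the thresholds, like all other genes in this test (0 of 18677, 0.0%, with 2046 at an unadjusted p under 0.05 and 319 called by DESeq2).

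Since *Amot* is on the X chromosome, the sex of the embryos was read from the summed counts of 4 Y-linked genes (*Ddx3y*, *Eif2s3y*, *Kdm5d* and *Uty*) and from *Xist*. The embryos fell into 11 with 294 to 4654 Y-linked counts and 2 to 169 *Xist* counts, and 12 with 0 to 14 Y-linked counts and 1139 to 28367 *Xist* counts. The first kind made up 4 of 9 WT, 4 of 7 het and 3 of 7 null embryos. *Amot* had 37.1 to 59.4 CPM in the WT embryos with Y-linked transcripts and 57.4 to 191 CPM in those without. In null embryos it had 24.6 to 53.0 CPM with and 15.8 to 72.6 CPM without them. With sex as a term, a fit added after the data were seen, *Amot* kept its calls with the stages combined (log2 fold change -1.46, edgeR adjusted p = 0.0151 against het, and -1.07, adjusted p = 0.0663 against WT embryos), while its calls at E2.75 were lost (-1.39, adjusted p = 0.148, and -1.46, adjusted p = 0.189). With stage as a term instead, the 2 combined values were -1.31 (adjusted p = 0.0342) and -1.15 (adjusted p = 0.0409).

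**Figure D3:**
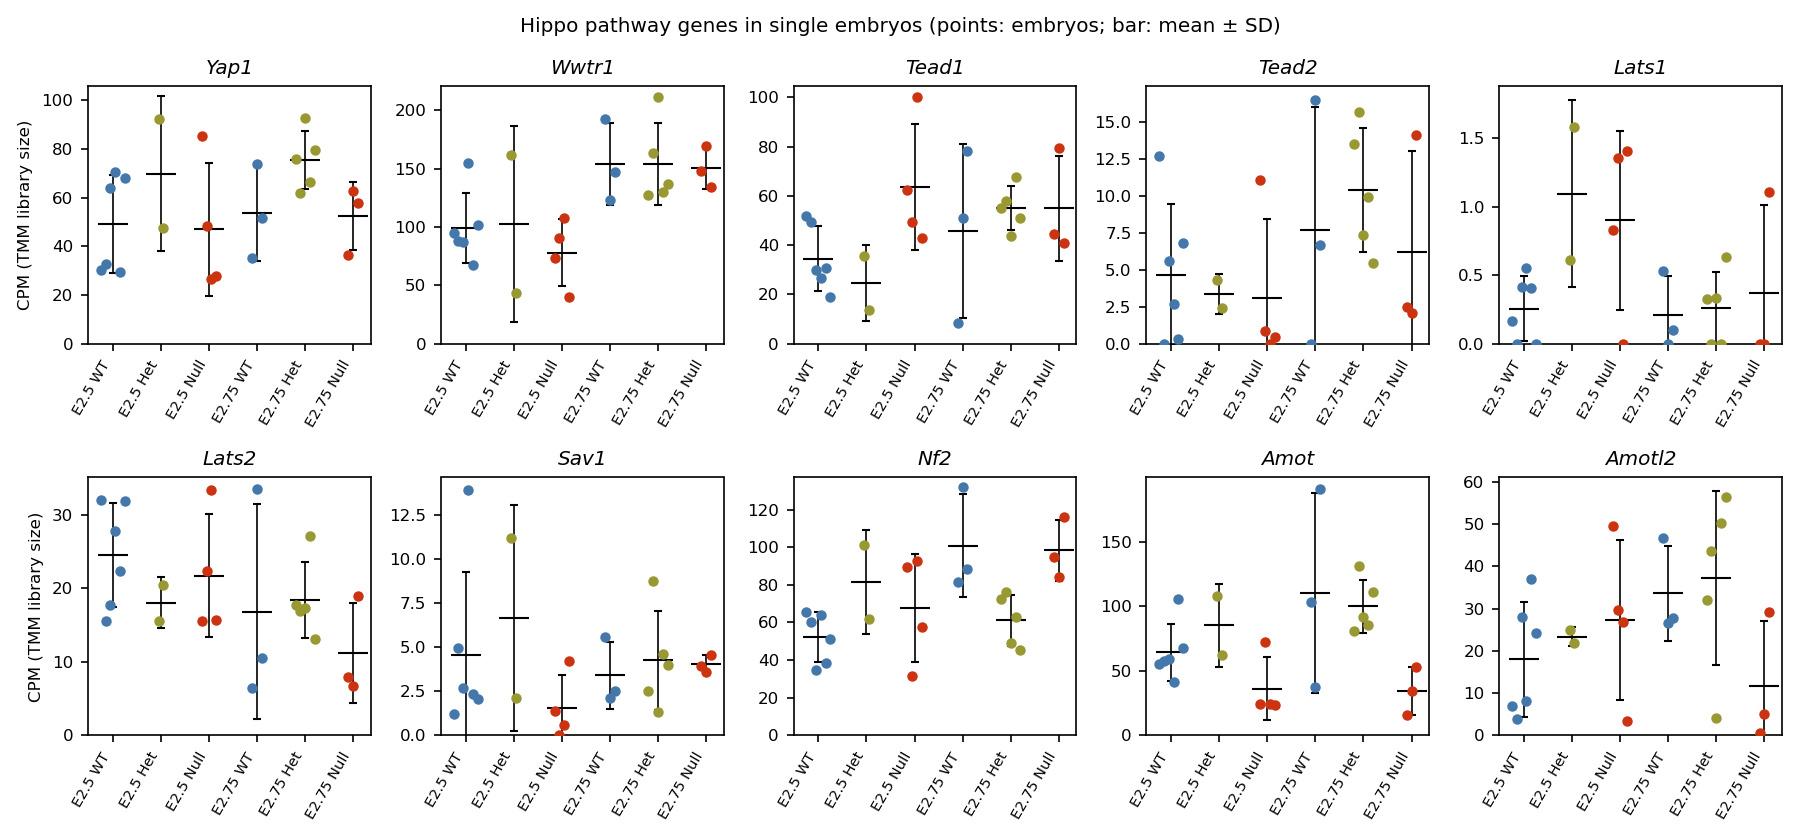
Level of each of the 10 genes in CPM (vertical axes, linear, 1 panel per gene), with 1 point per embryo and the mean ± SD of each genotype and stage in black. The null embryos of *Amot* lie between 15.8 and 72.6 CPM, with 6 of 7 below every het embryo.

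The coactivators themselves showed no call. YAP1 binds TEAD factors in the nucleus of outer cells. *Yap1* had 29.4 to 74.0 CPM in WT, 47.4 to 92.8 in het and 26.6 to 85.2 in null embryos. The het embryos lay towards the upper end, and all groups overlapped. Its log2 fold change was -0.58 in null against het embryos (SE 0.30, interval -1.20 to 0.03, edgeR adjusted p = 0.321), 0.54 in het against WT embryos (SE 0.28, adjusted p = 0.711) and -0.04 in null against WT embryos (SE 0.28, interval -0.62 to 0.54, adjusted p = 0.983). *Wwtr1*, which encodes TAZ, the paralog of YAP1, had -0.35 in null against het embryos (SE 0.31, adjusted p = 0.614) and -0.11 in null against WT embryos (SE 0.29, interval -0.71 to 0.49, adjusted p = 0.929). At E2.5 *Wwtr1* had 40.4, 73.2, 90.6 and 108 CPM in the null embryos, and at E2.75 it had 134, 148 and 169 CPM. The difference between these stages in null embryos was not tested. In the WT embryos it ranged from 67.4 to 155 CPM at E2.5, and the later WT embryos had 123, 147 and 192 CPM, a log2 fold change of 0.63 between the stages (SE 0.34, edgeR adjusted p = 0.301).

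TEAD factors bring YAP1 and TAZ to DNA. *Tead1* had 8.25 to 78.2 CPM in WT, 13.6 to 67.8 in het and 40.8 to 100 in null embryos. At E2.5 the 4 null embryos had 43.0, 49.3, 62.2 and 100 CPM and the het embryos 13.6 and 35.6 CPM, with a log2 fold change of 1.29 (SE 0.60, edgeR adjusted p = 0.532). With the stages combined it was 0.64 in null against WT embryos (SE 0.36, interval -0.10 to 1.38, adjusted p = 0.431) and 0.37 in null against het embryos (SE 0.38, adjusted p = 0.684), a direction that turned to -0.79 when libraries were scaled to the spike-ins. *Tead2* was low and uneven. It was at 0 in 3 of 23 embryos and reached 16.5 CPM, its WT, het and null ranges overlapped, and its intervals were wide (null against het -0.89, interval -2.99 to 1.21, edgeR adjusted p = 0.716).

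Of the kinases and their scaffold, *Lats2* was the main LATS transcript. It had 6.39 to 33.5 CPM in WT, 13.1 to 27.1 in het and 6.67 to 33.3 in null embryos, with log2 fold changes of -0.09 in null against het (SE 0.41, interval -0.92 to 0.75, edgeR adjusted p = 0.945) and -0.35 in null against WT embryos (SE 0.39, adjusted p = 0.768). *Lats1* had 0 to 17 counts per embryo and was at 0 in 8 of 23, and it was tested at E2.5 alone for genotype. There its log2 fold change was 1.73 in null against WT embryos (SE 1.44, interval -1.34 to 4.80, edgeR adjusted p = 0.655) and -0.33 in null against het embryos (interval -4.42 to 3.77, adjusted p = 0.991), so that a difference was not detectable at this depth. In an embryo a count of 0 allows up to 3 counts. *Sav1*, whose product links the MST kinases to LATS, had 0 to 13.9 CPM, with log2 fold changes of -0.92 in null against het (SE 0.82, interval -2.60 to 0.76, adjusted p = 0.623) and -0.67 in null against WT embryos (SE 0.78, adjusted p = 0.780).

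*Amotl2*, a paralog of *Amot*, varied widely within every genotype. At E2.75 the null embryos had 0.493, 5.13 and 29.2 CPM, the WT embryos 26.5, 27.8 and 46.6 CPM and the het embryos 4.06, 32.0, 43.7, 50.2 and 56.4 CPM. The 2 lowest of the null embryos at this stage were those with the shallow libraries, and the lowest value rested on 1 count. The log2 fold changes of *Amotl2* at E2.75 were -1.66 in null against het (SE 0.87, interval -3.51 to 0.19, edgeR adjusted p = 0.356) and -1.52 in null against WT embryos (SE 0.93, adjusted p = 0.423). At E2.5 they were 0.17 and 0.59 (SE 0.97 and 0.71, adjusted p = 0.991 and 0.791). The difference between the stages in null against WT embryos was -2.08 (SE 1.25, adjusted p = 0.567).

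*Nf2* encodes merlin, which recruits LATS to the membrane. With the stages combined its levels were 34.9 to 132 CPM in WT, 45.6 to 101 in het and 31.3 to 116 in null embryos, with log2 fold changes of 0.27 in null against het (SE 0.30, edgeR adjusted p = 0.704) and 0.24 in null against WT embryos (SE 0.28, adjusted p = 0.787), both of which turned negative under spike-in scaling (-0.77 and -0.18). At E2.75 the null embryos had 84.1, 94.6 and 116 CPM and the het embryos 45.6, 49.0, 62.8, 72.3 and 76.0 CPM. The log2 fold change was 0.65 (SE 0.28, interval 0.06 to 1.24), which missed the threshold (edgeR adjusted p = 0.243). The WT embryos of this stage (81.5, 88.4 and 132 CPM) lay in the range of the null embryos, with a log2 fold change of -0.08 (SE 0.31, adjusted p = 0.929).

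**Figure D4:**
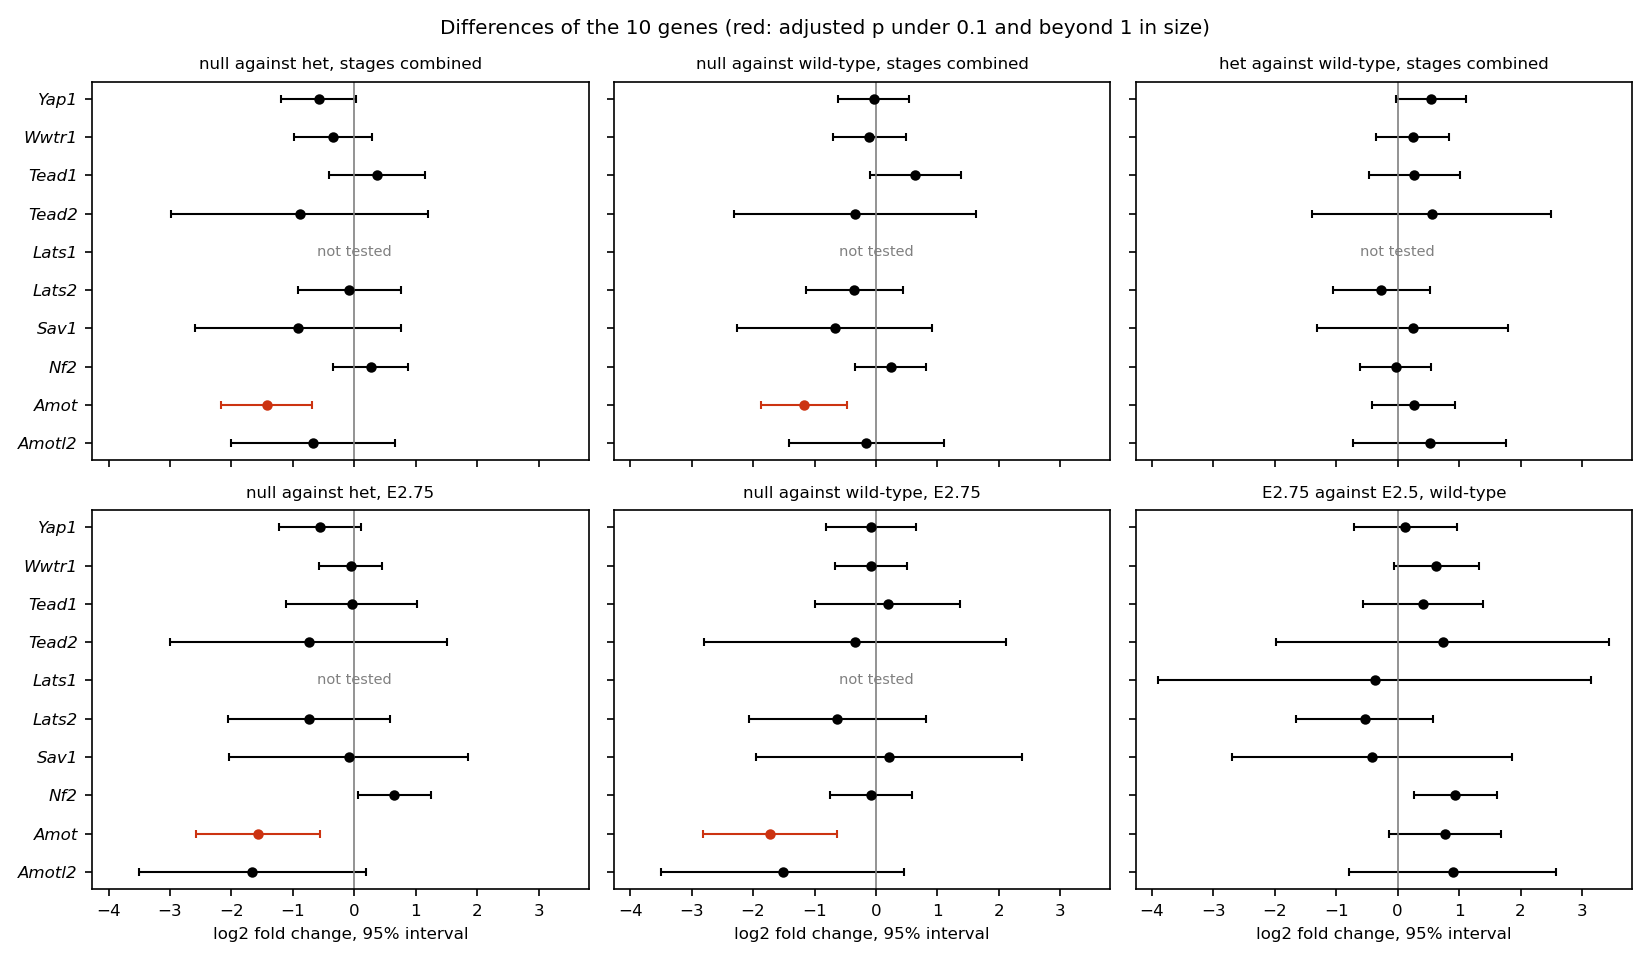
Log2 fold change of each of the 10 genes (horizontal axes, points with 95% confidence intervals) in 5 comparisons of genotype and in the stages of WT embryos, with calls in red and all others in black. *Amot* is red on the negative side in null embryos, both stages merged, and at E2.75, and the other genes are black in every panel.

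Between the stages of WT embryos, 0 of 10 members passed both thresholds, where 7.38% of 18677 genes did. *Nf2* came nearest. It had 34.9 CPM in the lowest, 55.7 in the median and 65.8 in the highest of the 6 embryos of E2.5, against 81.5, 88.4 and 132 CPM in the 3 embryos of E2.75. The log2 fold change was 0.94 (SE 0.33, interval 0.27 to 1.61, edgeR adjusted p = 0.0969), short of the limit of 1 in size. *Amot* had 0.77 (SE 0.44, adjusted p = 0.338). The stages were taken from different embryos, and 7 of the 10 members had positive values, with a median of 0.52 beside -0.00089 over all genes.

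Among 25 other genes of the pathway, a list chosen with results of these data known, 2 of 22 tested were called between null and het embryos of both stages, both lower, where 2.06% of all genes were called lower, and the list's median log2 fold change was -0.39 beside 0.02 over all genes. *Stk3*, which encodes the kinase MST2 that activates LATS, had 2.63 to 17.7 CPM in null, 13.5 to 38.5 in het and 14.1 to 59.4 in WT embryos. Its log2 fold change was -1.5 against het (SE 0.42, edgeR adjusted p = 0.0420) and -1.83 against WT embryos (SE 0.41, adjusted p = 0.00797). *Btrc* encodes an F-box protein of the ligase that marks phosphorylated YAP1 for degradation. It fell against het embryos with a log2 fold change of -1.30 (SE 0.25, edgeR adjusted p = 0.00344), while its -0.998 against WT embryos (adjusted p = 0.0154) was just inside the limit of 1 in size. In null against WT embryos the 2 called genes (background 1.59% lower) were *Stk3* and *Mob1b*, a cofactor of LATS, with -1.33 (SE 0.40, adjusted p = 0.0617). Both calls held without the E2.5 WT replicate 6 (-1.75, adjusted p = 0.0159, and -1.39, adjusted p = 0.0611). Over the 16 fits that left out 1 embryo, *Stk3* was called in 16 and *Mob1b* in 11, and *Mob1b* was not called without the 2 shallow null libraries (-1.16, adjusted p = 0.182). In het against WT embryos 0 of 22 were called.

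By stage, *Btrc* was lower in null against WT embryos at E2.5 (log2 fold change -1.14, edgeR adjusted p = 0.0912), the single call among 22 genes tested (background 1.82%), which was lost in 9 of 10 fits with 1 embryo left out, also without the E2.5 WT replicate 6 (-1.13, adjusted p = 0.121). At E2.75 *Stk3* (-2.01, adjusted p = 0.0911), *Limd1*, which encodes a LIM protein that restrains LATS (-3.60, adjusted p = 0.0735), and *Btrc* (-1.18, adjusted p = 0.0903) were lower in null against het embryos, 3 of 23 genes tested (background 2.31% lower). Of the 8 fits that left out 1 embryo, *Stk3* was called in 1 and *Limd1* and *Btrc* in 3 each. At E2.5 *Limd1* had the opposite sign (2.33, SE 1.71, adjusted p = 0.692). *Tead4*, the TEAD factor needed for trophectoderm formation, had 43.9, 66.5 and 75.9 CPM in the null embryos and 140, 165 and 176 CPM in the WT embryos of E2.75. *Tead4* fell there, with a log2 fold change of -1.42 (SE 0.30, adjusted p = 0.0270), together with *Taok1*, a kinase upstream of MST (-1.09, adjusted p = 0.0694), 2 of 23 genes tested (background 2.35% lower). *Tead4* was called in 5 of 6 fits that left out 1 embryo, the exception being null replicate 3, and *Taok1* in 2 of 6. Against the het embryos of the same stage (78.7 to 117 CPM) *Tead4* had -0.70 (adjusted p = 0.189). *Tead3* was not tested with the stages combined, and *Stk4* had 0.42 in null against het embryos (adjusted p = 0.281). Without the 2 shallow null libraries, *Stk3*, *Limd1*, *Btrc* and *Taok1* were no longer called at E2.75 (adjusted p = 0.188, 0.370, 0.334 and 0.371). Over the members and all lists, 11 calls were lost without these libraries, some of them not named here. Between the stages of WT embryos *Mob1b* was the 1 gene of 23 called (background 7.38%), with -1.25 (edgeR adjusted p = 0.0710), and the call held in 3 of 9 fits with 1 embryo left out.

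Genes known as outputs of YAP1 and TEAD, in the embryo or in other cells, were examined as a further list, of which 10 of 12 were tested with the stages combined. In null against het embryos 2 were called, both lower (background 2.06% lower), and both held in all 15 fits that left out 1 embryo. *Gata3*, a trophectoderm transcription factor, had 19.3 to 62.1 CPM in null, 21.7 to 284 in het and 13.9 to 67.7 in WT embryos. Its log2 fold change was -2.12 against het embryos (SE 0.48, edgeR adjusted p = 0.00942), but its value against WT embryos was 0.11 (SE 0.43, adjusted p = 0.959). *Krt18*, a keratin of the trophectoderm, had a log2 fold change of -2.95 against het embryos (SE 0.80, adjusted p = 0.0352) and had -1.65 against WT embryos (SE 0.74, adjusted p = 0.278). *Cdx2*, the master factor of the trophectoderm, had -2.63 (SE 0.98, adjusted p = 0.141) and -0.78 (SE 0.89, adjusted p = 0.779). *Ccn1* and *Ccn2*, YAP1 targets of other cells, had -0.19 and -0.41 in null against het embryos (adjusted p = 0.950 and 0.864). In null against WT embryos 0 of 10 were called (background 5.25%), with 2 at an unadjusted p under 0.05 (background 15.1%). The het embryos were weighted to the later stage, with 5 of 7 at E2.75, against 3 of 7 null and 3 of 9 WT embryos.

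At E2.75, 2 of 10 output genes were called in null against het embryos, both lower (background 2.31% lower). *Krt18* had a log2 fold change of -3.20 there (edgeR adjusted p = 0.0383), a call lost without null replicate 3, and *Gata3* had -2.13 (adjusted p = 0.0859), a call that held in 1 of 8 fits with 1 embryo left out and was lost without the 2 shallow libraries. *Krt8*, another keratin of the trophectoderm, had -1.46 in that comparison (adjusted p = 0.150). In null against WT embryos of E2.75 *Krt8* was the single output gene called, and it was higher (log2 fold change 1.94, edgeR adjusted p = 0.0887, background 4.54% in either direction), a call that held in 1 of 6 fits with 1 embryo left out. Its WT embryos had 7.99, 12.3 and 18.6 CPM there, where the lowest WT embryo of E2.5 had 26.7 CPM and the lowest het embryo of E2.75 had 59.3 CPM. Between the stages of WT embryos *Krt8* fell, with a log2 fold change of -2.73 (adjusted p = 0.0144). It was 1 of 2 genes called among 11 tested (background 7.38%). *Axl* was at 0 in all 6 WT embryos of E2.5 and had 1, 62 and 0 counts in the 3 of E2.75, so that its call between the stages rests largely on 1 embryo.

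Polarity and contact genes, which set whether the cascade is active in a blastomere, made up another list of 12. With the stages combined 0 of 12 were called in null against het, null against WT or het against WT embryos (background 5.73%, 5.25% and 0.0%). At an unadjusted p under 0.05 there were 2, 1 and 3 genes (background 17.3%, 15.1% and 6.96%). At E2.75 *Pard6b*, a component of the apical PAR complex, was called higher in null against WT embryos (log2 fold change 2.24, edgeR adjusted p = 0.0992), with 17.3, 29.1 and 73.9 CPM in the null and 3.99, 6.57 and 13.4 CPM in the WT embryos. It was the 1 gene called of 12 tested (background 4.54% in either direction). The call held in 1 of 6 fits with 1 embryo left out, and without null replicate 2, the embryo with 73.9 CPM, the value was 1.46 (adjusted p = 0.318). Between the stages of WT embryos *Llgl1* rose (log2 fold change 1.52, adjusted p = 0.0471) and *Crb3* fell (log2 fold change -1.74, adjusted p = 0.00801). These were 2 of 12 genes tested (background 7.38%). Of 9 fits that left out 1 embryo, *Llgl1* was called in 7, the exceptions being WT replicates 2 and 3 of E2.75, and *Crb3* in 9.

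The genes whose log2 CPM most resembled that of *Yap1* over the 23 embryos, among 13415 genes, were *Egln2* (Pearson r 0.868), *Ago2* (0.809), *Dus3l* (0.80), *Ngef* (0.797) and *Rangap1* (0.794). Those most like *Amotl2* were *Peak1* (0.793), *Cenpj* (0.746), *Bin3* (0.721), *Slc39a4* (0.705) and *Gm42856* (0.698). Among the 9 members in that table, the pair with the highest correlation was *Yap1* and *Tead2* (0.702), followed by *Amot* and *Amotl2* (0.547), and *Yap1* and *Wwtr1* had 0.438. All values come from the same libraries, share their depth and stage, and are given as a description.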

How the data were processed

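RNA-seq libraries of single embryos were made with oligo-dT beads, template switching and Nextera XT, with ERCC spike-ins added. Per the labels and methods, the authors used Cutadapt 3.4 for trimming, STAR 2.7.8a for alignment to GRCm38 and HTSeq 0.11.4 for counting (intersection-strict mode, without strand). Raw counts of each gene were deposited, without normalization. For ChIP-seq the authors aligned with Bowtie2 2.4.4 and called peaks per replicate with MACS2 2.2.7.1. The deposited lists give a score derived from the q value, a fold enrichment (a ratio over the control) and -log10 of p and q. Positions of peaks were used with the fold enrichment and -log10 q.

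Counts were fitted with edgeR 4.0.16 in R 4.3.3 (quasi-likelihood test, TMM, filterByExpr, Benjamini-Hochberg adjustment over all genes tested) and called at the study's thresholds, 0.1 for the adjusted p and 1 for the size of the log2 fold change. All genotypes entered each fit, with the stages merged or apart. The fits were tested on simulated data. Levels are CPM with TMM library sizes, divided by exon length for CPM per kb. TSSs and exons came from GENCODE vM21, which holds 55227 of the gene identifiers, and sequence from GRCm38. Promoter sequences came from RefSeq. Tables were made with Python 3.11.15, pandas 2.3.3, NumPy 2.4.6 and SciPy 1.17.1.

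The members and lists were chosen with earlier results of these data known. Named are the 10 members, *Dis3*, every called gene of the 3 further lists and up to 4 others of each list in its written order, and the 5 genes most like *Yap1* and *Amotl2*. *Nf2*, *Amotl2* and *Krt8* values at single stages, and the Y-linked genes and *Xist*, were singled out after their values were seen. The 38 pairs of embryos of the same group differed by more than sampling noise (chi-square per gene 25.2 to 205, Spearman rho 0.75 to 0.909). Alternatives were DESeq2 1.42.0, no filter on low counts, spike-in scaling, a replicate block, stage as a term and each embryo left out. Fits without the 2 null libraries of fewer than 2000000 counts and with sex as a term were added after seeing the data. Reads outside exons (21% to 43.9% of a library) and spike-ins stayed out of library sizes. Limits and floors cover counting error only.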

Additional observations from a re-analysis of the deposited data

Results flagged for a closer look

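Of 30 groups of 4 to 10 embryos in which the members were examined, 3 held an embryo far from the rest of its group by Dixon's criterion, where chance flags about 1 in 20 groups. *Amot* reached 72.6 CPM in null replicate 2 of E2.5, while the other 3 null embryos of that stage had 23.5 to 24.6 CPM. *Tead2* reached 11.1 CPM in null replicate 1 of E2.5, where the others had 0 to 0.85 CPM. *Sav1* reached 13.9 CPM in WT replicate 4 of E2.5, where the others had 1.23 to 4.94 CPM.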

How the results depend on the processing

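With the stages combined, the fall of *Amot* in null against het embryos kept its direction and call in every alternative run (log2 fold change -2.58 to -1.31). The members called there rose to 5 under spike-in scaling (*Yap1* -1.66, *Wwtr1* -1.34, *Lats2* -1.34, *Amot* -2.58 and *Amotl2* -2.05), which moved the median of all 13415 genes to -1.08. Of all 13415 genes, 4776 were called under that scaling, 4487 of them lower. The count of members in null against WT embryos went to 0 with the replicate block and without the 2 shallow null libraries, and to 0 to 1 with each embryo left out. At E2.75 it went from 1 to 0 in null against het embryos with the block, with sex as a term, without the shallow libraries and without each embryo (0 to 0), but to 2 with no filter and 3 with spike-ins. Spike-in scaling called 2494 of all 14442 genes in that comparison. In null against WT embryos of E2.75 the count of members went to 0 with the block, sex as a term and without the shallow libraries, and to 0 to 1 with embryos left out. At E2.5 spike-in scaling gave 1 in null against het embryos, and in the stages of WT embryos DESeq2 gave 1, spike-ins 4 and leaving out embryos 0 to 1. Of all genes, spike-in scaling called 1955 of 15904 in null against het at E2.5 and 3277 of 18677 in the stages of WT embryos. Members with a peak in all 4 lists were 3 under each window and q limit, and 3 to 10 with 1 replicate left out. In replicate 2 against IgG the 9 members became 8, without *Amotl2*, with a window of 500 bp or the summit in the window. There they became 7 with -log10 q of at least 5, and in replicate 1 against mCherry 10 became 9. At the gene level, signs turned for *Nf2* in het against WT embryos (0.0013 with no filter, 0.58 with spike-ins), for *Tead1* (-0.79) and *Nf2* (-0.77) in null against het, *Nf2* in null against WT (-0.18) and *Lats2* in het against WT (0.57) with spike-ins, for *Yap1* in null against WT with the block (0.00064), *Wwtr1* in het against WT with stage as a term (-0.020), and for *Lats2* in null against het (0.14) and *Amotl2* in null against WT (0.21) without the shallow libraries. With embryos left out, log2 fold changes crossed 0 in null against WT for *Yap1* (-0.23 to 0.064), *Wwtr1* (-0.25 to 0.033), *Tead2* (-0.98 to 0.051) and *Amotl2* (-0.54 to 0.041), in null against het for *Lats2* (-0.33 to 0.045) and in het against WT for *Nf2* (-0.16 to 0.14) and *Sav1* (-0.10 to 0.75). The cause was not tested. The replicate numbers showed no sign of pairing, since 44 same-numbered pairs had correlations of -0.11 to 0.086 and 0 were over 0.1. In such small groups a shared litter could go unseen by this measure. All genes called went from 769 to 1265 (DESeq2), 1808 (no filter) and 4776 (spike-ins, 289 higher and 4487 lower) in null against het of both stages, and from 704 to 1074 and 3409 (DESeq2, no filter) in null against WT, with 317 higher and 469 lower by spike-ins. In null against het at E2.5 the 2 genes became 447, 33, 1955 and 0 (DESeq2, no filter, spike-ins, block), and in null against WT 289 became 959, 539, 91 and 41. At E2.75 696 became 1302, 1321, 2494 and 93 in null against het and 142 without the shallow libraries, and 656 became 1655 and 1122 (DESeq2, no filter), 206 (block) and 148 in null against WT, with 181 higher and 746 lower by spike-ins. In the stages of WT embryos 1378 became 2104, 3277 (3218 higher and 59 lower) and 913 (no filter, spike-ins, block). For the stage difference, 0 became 319, 221 and 2 (DESeq2, no filter, block). With 1 embryo left out, all genes called were 529 to 922 in null against het, 601 to 847 in null against WT and 0 to 2 in het against WT embryos with the stages combined. They were 0 to 5 (null against het) and 52 to 217 (null against WT) at E2.5, 292 to 720 and 222 to 485 at E2.75, 745 to 1530 in the stages of WT embryos and 0 to 5 for the stage difference. Over the calls of single genes, of members and of all lists, 16 were lost with the replicate block and 7 with sex as a term, not all of them named here. The shallow null libraries and low counts limit *Lats1*, *Sav1* and *Tead2* most.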

Other observations

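*Has2*, a cumulus cell gene, was counted in 1 of 23 embryos, null replicate 3 of E2.5, with 62 counts (18.9 CPM).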
